A study of Mus musculus with 15 samples.

Results

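The comparison described here is the difference between 2 knockdown responses in mouse embryonic stem cells, the Tet1 effect minus the Sin3A effect, over all 15 arrays of the study and all 21212 probe sets of the array. The cells were the feeder independent line E14TG2a.4 at passage 17, cultured on gelatin with serum and LIF and transduced with lentivirus carrying a short hairpin RNA (shRNA). Selection with puromycin at 2 micrograms per ml began 36 hours after transduction and lasted 72 hours. The Tet1 set held 9 arrays, with 3 of a scrambled shRNA, 3 of Tet1 shRNA 4 and 3 of Tet1 shRNA 5. The Sin3A set held 6 arrays, with 3 of a scrambled shRNA and 3 of a single Sin3A shRNA, so an effect of that hairpin on other transcripts has no second hairpin beside it. The labels do not tell whether replicates were separate transductions, so p-values reflect only the spread among these arrays, which may be technical.

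The Tet1 effect is the mean of both Tet1 hairpins minus the scrambled arrays of the same set, and the Sin3A effect is the Sin3A hairpin minus the scrambled arrays of its own set, both in log2 units. A positive difference means that a transcript stood higher, relative to its own scrambled control, after Tet1 than after Sin3A knockdown. The mean of all probe sets lay between 7.08 and 7.11 on the arrays of the Tet1 set and at 8.09 on all arrays of the Sin3A set. Levels were therefore compared only within a set, and the knocked-down gene and the set of arrays cannot be told apart in this comparison. All 10 embryonic stem cell markers examined lay above the array median in all 5 groups, while 2 or 3 of 9 fibroblast markers did, 2 or 3 of 9 primitive endoderm markers, 3 or 4 of 8 trophoblast markers and 2 to 4 of 5 neural markers. The mean of the marker list of each of these other cell types moved by at most 0.26 log2 units between a knockdown and its scrambled arrays. These are bulk samples, in which fewer cells of a type and less RNA per cell cannot be told apart.

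Tet1 is a dioxygenase that oxidises 5-methylcytosine in DNA to 5-hydroxymethylcytosine, and it is abundant in embryonic stem cells, where it binds CpG-rich promoters. Sin3A is the scaffold of a corepressor complex that carries histone deacetylases and is brought to promoters by DNA-binding factors such as the Mad family partners of Max. Tet1 protein is known to associate with Sin3A, so the comparison asks which genes answer differently to loss of each partner.

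The promoters of the most strongly reversed genes, those that went one way with Tet1 shRNA and the other way with Sin3A shRNA, are shown because CpG-rich promoters are the known binding places of Tet1. They are the first genes of each direction with 1 window in the RefSeq promoter table (build GRCm38.p6). Each window runs 5′ to 3′ from 250 bases before to 50 bases after the gene's start, with every CpG in capitals. The Acsf2 window (chr11:94601737-94602036, minus strand) and the Slc4a5 window (chr6:83237125-83237424, plus strand) belong to genes that rose with Tet1 and fell with Sin3A shRNA. The Peg3 window (chr7:6730370-6730669, minus strand) and the Neurod1 window (chr2:79456587-79456886, minus strand) belong to genes that did the opposite.
Acsf2: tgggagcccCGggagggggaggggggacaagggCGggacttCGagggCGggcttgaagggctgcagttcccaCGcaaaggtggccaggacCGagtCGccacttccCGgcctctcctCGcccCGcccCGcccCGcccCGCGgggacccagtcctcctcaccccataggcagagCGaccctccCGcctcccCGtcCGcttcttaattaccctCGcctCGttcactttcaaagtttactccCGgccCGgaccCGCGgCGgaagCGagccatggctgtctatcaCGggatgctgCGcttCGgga
Slc4a5: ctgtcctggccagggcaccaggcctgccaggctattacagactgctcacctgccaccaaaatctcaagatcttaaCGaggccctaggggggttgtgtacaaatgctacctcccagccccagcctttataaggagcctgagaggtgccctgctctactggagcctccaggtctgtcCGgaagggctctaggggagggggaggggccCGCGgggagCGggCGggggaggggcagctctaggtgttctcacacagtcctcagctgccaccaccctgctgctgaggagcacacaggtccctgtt
Peg3: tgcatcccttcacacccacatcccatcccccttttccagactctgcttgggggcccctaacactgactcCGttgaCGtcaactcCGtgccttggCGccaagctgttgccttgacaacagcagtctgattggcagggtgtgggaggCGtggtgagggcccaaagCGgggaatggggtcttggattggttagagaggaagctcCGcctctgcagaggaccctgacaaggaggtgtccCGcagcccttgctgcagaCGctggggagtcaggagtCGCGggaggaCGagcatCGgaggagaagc
Neurod1: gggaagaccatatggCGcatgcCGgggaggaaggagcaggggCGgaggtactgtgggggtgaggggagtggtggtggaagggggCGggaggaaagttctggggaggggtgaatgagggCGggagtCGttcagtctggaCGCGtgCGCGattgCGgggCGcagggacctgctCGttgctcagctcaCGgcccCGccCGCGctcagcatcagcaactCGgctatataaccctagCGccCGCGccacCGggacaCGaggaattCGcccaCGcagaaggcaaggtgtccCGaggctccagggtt
The number of CpG dinucleotides was 29 in the Acsf2 window, 6 in the Slc4a5 window, 13 in the Peg3 window and 26 in the Neurod1 window, so genes of both directions had CpG-rich and CpG-poorer promoters.

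The targeted genes were measured first. Tet1 lay at 12.21, 12.17 and 12.21 on the scrambled arrays of the Tet1 set, at 10.43, 10.44 and 10.39 with Tet1 shRNA 4, and at 9.94, 10.14 and 10.20 with Tet1 shRNA 5. On the Sin3A arrays it lay at 12.48, 12.49 and 12.41 with scrambled shRNA and at 12.68, 12.79 and 12.83 with Sin3A shRNA. The groups did not overlap in either set, and Tet1 itself met the definition of a reversed gene, with a Tet1 effect of -1.94 that is the knockdown and a Sin3A effect of 0.31 (limma adjusted p = 0.00333). Sin3a lay between 10.25 and 10.31 on the scrambled arrays of the Tet1 set and between 9.96 and 10.10 on the 6 Tet1 shRNA arrays, a Tet1 effect of -0.25 (adjusted p = 0.00106). With its own hairpin Sin3a went from 10.87, 10.99 and 10.94 to 9.35, 9.38 and 9.43, a Sin3A effect of -1.55. Each knockdown thus showed in its own set, 3.84-fold for Tet1 and 2.93-fold for Sin3a. The paralogs gave no called difference: -0.21 for Tet2 (adjusted p = 0.155), -0.20 for Tet3 (0.113) and -0.11 for Sin3b (0.363).

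Across the array the responses diverged for many genes. The difference was called, at an adjusted p under 0.05 from limma over all probe sets, for 4241 of 21212 probe sets (20.0%), of which 2393 were higher (11.3%) and 1848 lower (8.71%). At an unadjusted p under 0.05 the count was 6553. The difference reached at least 2-fold for 157 higher and 74 lower probe sets. Taking each Tet1 hairpin alone against Sin3A, the difference was called with the same sign for both hairpins at 1730 higher and 1295 lower probe sets (14.3% together); both comparisons share the scrambled arrays and the whole Sin3A set. Across probe sets the Tet1 and Sin3A effects correlated with Pearson r 0.184 and Spearman rho 0.101, and their spreads were alike, with SDs of 0.227 and 0.241; probe sets are not independent, and the sets share no array. The median SE of a difference was 0.107 log2 units. The median difference of all probe sets was -0.01.

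Each called difference falls into a class by what the separate effects did. Both effects were called with opposite signs, here termed reversed, for 619 probe sets (2.92%): 399 rose with Tet1 and fell with Sin3A shRNA (1.88%), and 220 did the opposite (1.04%). A further 1367 probe sets had a called Tet1 effect and no called Sin3A effect, termed Tet1 led, with 851 higher and 516 lower. The Sin3A led class, with the call on the Sin3A side only, held 1729 probe sets, 863 higher and 866 lower. Both effects were called in the same direction but with unequal size for 284 probe sets, and for 242 the difference alone was called. For comparison, 1793 probe sets had both effects called, and of these 1174 had the same sign, 890 of them with no called difference. An effect called in one knockdown and not in the other is listed as led only because the difference itself was called.

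**Figure D1:**
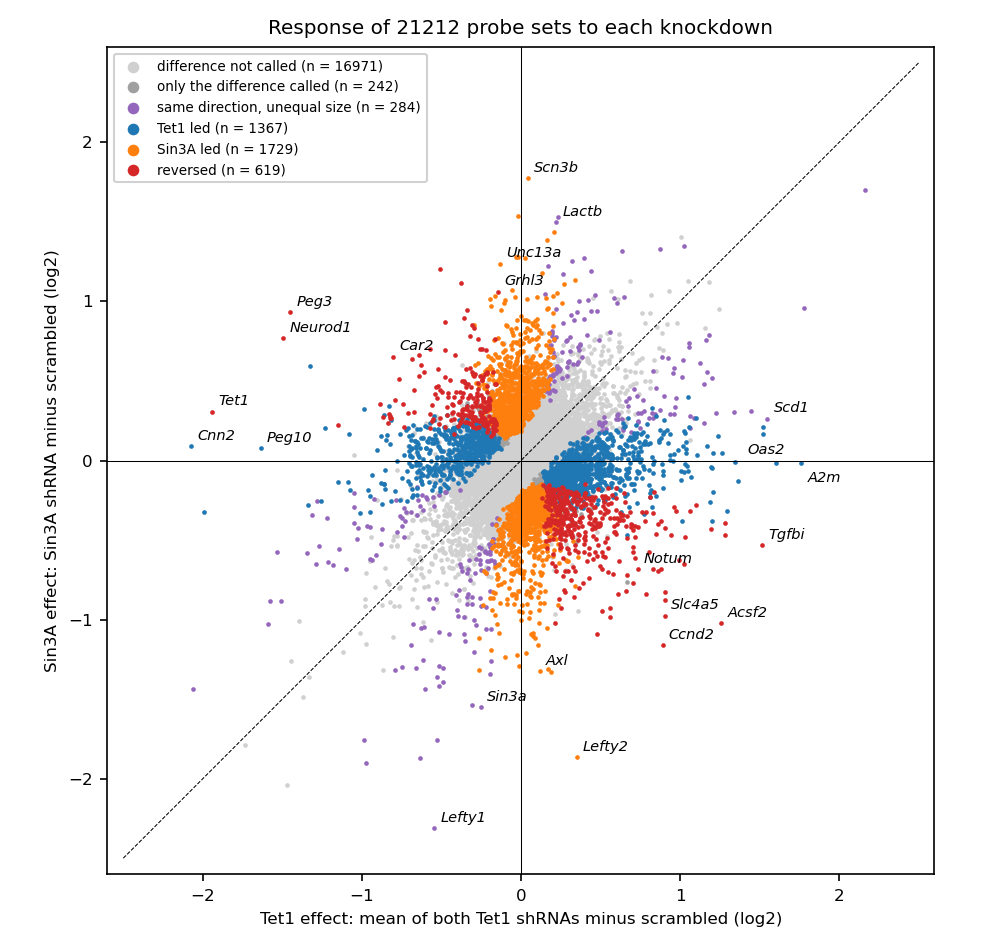
Tet1 effect (x axis, log2) against Sin3A effect (y axis, log2) of all 21212 probe sets, each point a probe set coloured by class, with the dashed line marking equal effects. Reversed probe sets (619) lie at the upper left and lower right, with Acsf2, Slc4a5 and Ccnd2 at the lower right and Peg3 and Neurod1 at the upper left, while Tet1 led and Sin3A led probe sets lie along the x and y axes.

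Genes that rose with Tet1 and fell with Sin3A shRNA were led by Acsf2, a mitochondrial acyl-CoA synthetase that activates fatty acids. Acsf2 lay at 7.72, 7.69 and 8.31 on the scrambled arrays of the Tet1 set, at 9.48, 9.41 and 9.41 with Tet1 shRNA 4, and at 8.89, 8.86 and 8.94 with Tet1 shRNA 5. Its Sin3A set values were 9.27, 9.51 and 9.33 with scrambled and 8.52, 8.24 and 8.28 with Sin3A shRNA. No array of a knockdown overlapped its scrambled arrays, although scrambled array 3 of the Tet1 set stood above the other two. The Tet1 effect was 1.26 and the Sin3A effect -1.02, a difference of 2.28 (SE 0.17, adjusted p = 7.85e-07). Acsf2 was the only probe set that changed at least 2-fold in each direction. Slc4a5, a sodium bicarbonate cotransporter, lay at 7.85, 8.07 and 7.94 with scrambled shRNA and between 8.81 and 8.95 on the 6 Tet1 shRNA arrays. In the other set it went from 9.24, 9.01 and 9.19 to 8.11, 8.16 and 8.26. The groups were apart in both sets and the hairpins were alike, with differences of 1.88 for each hairpin against Sin3A (SE of the combined difference 0.10).

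Ccnd2 encodes cyclin D2, a partner of the kinases that phosphorylate the retinoblastoma protein in G1. It stood at 8.46, 8.51 and 8.62 with scrambled shRNA, at 9.25, 9.31 and 9.23 with Tet1 shRNA 4 and at 9.45, 9.61 and 9.67 with Tet1 shRNA 5. Sin3A shRNA took it from 9.87, 9.86 and 10.03 to 8.81, 8.82 and 8.64. These groups were also fully apart, and the difference was 2.05 (SE 0.10, adjusted p = 1.66e-08), 4.15-fold. Mrps21, a protein of the small mitochondrial ribosomal subunit, showed the widest spread of the 20 reversed genes named here. Its scrambled arrays lay at 10.73, 10.52 and 11.44 and its Tet1 shRNA arrays between 11.36 and 12.20, so that these groups overlapped. Sin3A shRNA arrays lay at 10.76, 10.25 and 10.16 against 11.26, 11.17 and 11.23. The difference of 1.73 (SE 0.32, adjusted p = 0.00137) was called. Its separate Sin3A effect lost its call on leaving out any 1 of 5 of the 6 Sin3A set arrays, with limma adjusted p up to 0.0974.

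The other 6 genes named in this direction had differences between 1.42 and 1.57. They were Ddr2, a receptor tyrosine kinase for collagen (0.71 with Tet1, -0.77 with Sin3A), Slc7a6, an amino acid transporter (0.86 and -0.70), Obox6, a homeobox gene of oocytes and early embryos (0.83 and -0.68), Ucma, a secreted cartilage matrix protein (0.88 and -0.68), Notum, a secreted enzyme that inactivates Wnt proteins (0.73 and -0.68), and Unc5b, a netrin receptor (0.66 and -0.82). All had adjusted p for the difference of 0.000522 or lower. For Obox6 the scrambled and Tet1 shRNA arrays overlapped. Its separate Sin3A effect missed the threshold on leaving out any 1 of 4 of the 6 Sin3A set arrays (limma adjusted p up to 0.0674).

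Genes that fell with Tet1 and rose with Sin3A shRNA were led by Peg3, a paternally expressed imprinted gene that encodes a zinc finger protein. Peg3 lay at 10.39, 10.20 and 10.35 with scrambled shRNA, at 8.84, 8.77 and 8.80 with Tet1 shRNA 4 and at 8.75, 8.97 and 9.07 with Tet1 shRNA 5. It rose from 10.88, 10.81 and 10.81 to 11.72, 11.75 and 11.82 with Sin3A shRNA. No groups overlapped, and the difference of -2.38 (SE 0.10, adjusted p = 3.66e-09) had the largest size of all 21212 probe sets. Neurod1, a bHLH factor that drives neuronal and endocrine differentiation, lay at 8.67, 8.46 and 8.34 with scrambled shRNA, at 6.68, 6.53 and 6.97 with Tet1 shRNA 4 and at 7.24, 7.27 and 7.28 with Tet1 shRNA 5. Against scrambled values of 9.55, 9.48 and 9.40, the Sin3A shRNA arrays read 10.25, 10.27 and 10.20. The groups were apart in both sets; Tet1 shRNA 4 lowered Neurod1 further than Tet1 shRNA 5, and the difference from Sin3A was -2.53 with the first and -1.99 with the second.

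Car2, a cytosolic carbonic anhydrase, went from 10.61, 10.45 and 10.37 to 9.40, 9.37 and 9.50 with Tet1 shRNA 4 and to 9.97, 9.88 and 9.94 with Tet1 shRNA 5. Sin3A shRNA raised it from 11.25, 11.16 and 11.25 to 11.86, 11.89 and 11.87. Both Tet1 hairpins lay below every scrambled array and every Sin3A shRNA array lay above its own, for a difference of -1.45 (SE 0.08, adjusted p = 6.48e-08). Rassf3, a Ras-association domain protein, lay at 7.44, 7.51 and 7.5 with scrambled shRNA and between 6.78 and 6.99 with Tet1 shRNA, while Sin3A shRNA took it from 8.45, 8.44 and 8.53 to 9.05, 9.15 and 9.24. Its groups did not overlap, and the 2 effects were nearly mirror images at -0.64 and 0.67. The other 6 genes named in this direction differed by -1.09 to -1.32: Lpp, a LIM protein of focal adhesions, Marcks, an actin-binding membrane protein and kinase substrate, Cfap300, a ciliary protein, Usp25, a deubiquitinase, Reep6, a protein that shapes the endoplasmic reticulum, and Prrg4, a transmembrane Gla protein. Of the 20 reversed genes named, 17 had no overlap between knockdown and scrambled arrays in either set, and Mrps21, Obox6 and Cfap300 overlapped in the Tet1 set.

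**Figure D2:**
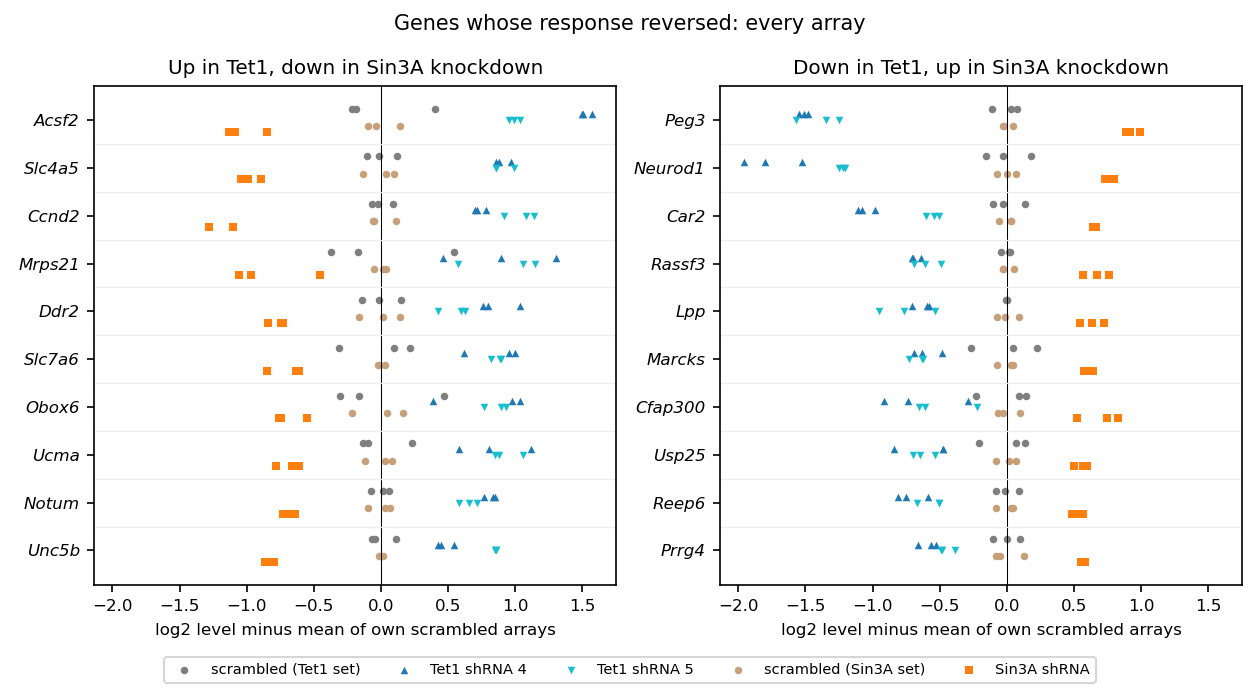
Log2 level of each array minus the mean of the scrambled arrays of its own set (x axis) for the 10 genes named in each reversed direction, with 1 point per array and a symbol per group. Sin3A shRNA arrays and Tet1 shRNA arrays lie on opposite sides of their scrambled arrays for 17 of the 20 genes, and Mrps21, Obox6 and Cfap300 have Tet1 shRNA arrays that reach into the scrambled range.

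Over the reversed class, the median effects were small: 0.32 with Tet1 and -0.36 with Sin3A shRNA in one direction, and -0.30 and 0.33 in the other. A change of at least 1.5-fold each way was reached by 18 and 6 probe sets. The 2 Tet1 hairpins were each called for 258 of the 399 and 133 of the 220. No knockdown array overlapped its scrambled arrays in either set for 339 of the 399 and 178 of the 220; over all probe sets that pattern occurred for 2.84% in the first direction and 1.75% in the second. Because the class was picked by its calls, these counts describe it and test nothing. The 2 Tet1 hairpins differed from each other for 188 probe sets (0.886%).

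Genes with a called Tet1 effect and no called Sin3A effect included the interferon-induced Oas2 and Irgm1 on the higher side. A2m, a secreted protease inhibitor, lay at 7.61, 7.81 and 8.07 with scrambled shRNA, at 9.95, 9.58 and 9.88 with Tet1 shRNA 4 and at 9.35, 9.42 and 9.38 with Tet1 shRNA 5. Its Sin3A set values were 9.35, 9.33 and 9.26 with scrambled and 9.25, 9.37 and 9.28 with Sin3A shRNA, so the groups overlapped there and were apart in the Tet1 set. The difference was 1.78 (SE 0.14, adjusted p = 9.47e-07). Oas2, an interferon-induced enzyme that senses double-stranded RNA, went from 5.89, 6.23 and 6.49 to between 7.67 and 8.0 with Tet1 shRNA, and in the Sin3A set lay between 7.37 and 7.55 with scrambled and between 7.43 and 7.46 with Sin3A shRNA. The Tet1 arrays were apart from their controls and the Sin3A arrays lay within theirs, a difference of 1.62. Irgm1, an interferon-inducible GTPase (1.61), Hormad2, a meiotic chromosome protein (1.58), Casp8, the initiator caspase of death receptors (1.5), and Srgn, a proteoglycan of secretory granules (1.45), followed, all with adjusted p of 6.63e-05 or lower. Irgm1, Hormad2 and Srgn had Sin3A effects of -0.32, -0.38 and -0.26 that missed the threshold (0.0935, 0.0952 and 0.086) and passed it in some alternative settings, which would make them reversed.

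On the lower side Cnn2, calponin 2, an actin-binding protein, lay at 10.61, 10.46 and 10.52 with scrambled shRNA, at 8.20, 8.38 and 8.34 with Tet1 shRNA 4 and at 8.58, 8.68 and 8.57 with Tet1 shRNA 5. The Sin3A set read 11.88, 11.81 and 11.89 with scrambled and 11.92, 11.97 and 11.96 with Sin3A shRNA. The fall with Tet1 shRNA was 4.20-fold and the Sin3A effect 0.09 (adjusted p = 0.367), a difference of -2.16 (SE 0.08). Hmgn5, a nucleosome-binding protein, had scattered values of 8.17, 7.04 and 7.76 with scrambled shRNA and 5.86 to 6.72 with Tet1 shRNA, apart all the same. Its Sin3A effect of 0.60 came from 7.82, 8.23 and 7.81 against 8.34, 8.69 and 8.62 and missed the threshold (0.109), and the difference of -1.92 had an SE of 0.33. Hmgn5 was reversed with array weights, without scrambled array 2 of the Tet1 set, and without that array and Tet1 shRNA 4 array 2 together (adjusted p of the Sin3A effect 0.0419, 0.0384 and 0.00837). Peg10, an imprinted retrotransposon-derived gene (-1.72), Fndc3c1 (-1.67), Rab12, a small GTPase of membrane traffic (-1.44), and Arap2, a GTPase-activating protein (-1.31), completed the 6.

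In the Sin3A led class, Lefty2 had the largest positive difference. Lefty2 and Lefty1 encode secreted inhibitors of Nodal that are themselves Nodal targets. Lefty2 lay at 7.67, 8.19 and 8.31 with scrambled shRNA, at 9.08, 8.37 and 8.93 with Tet1 shRNA 4 and at 8.02, 7.84 and 8.19 with Tet1 shRNA 5, and its Sin3A set values went from 8.04, 8.25 and 8.12 to 6.32, 6.12 and 6.38. Only the Sin3A groups were apart; the Tet1 shRNA 4 arrays lay above and the Tet1 shRNA 5 arrays within the scrambled range. The difference of 2.22 (SE 0.23, adjusted p = 1.27e-05) was 2.6 with the first hairpin and 1.83 with the second. Lefty2 was reversed with Tet1 shRNA 4 as the only Tet1 hairpin, without Tet1 shRNA 4 array 2, and without that array and scrambled array 2 together (adjusted p of the Tet1 effect 0.0153, 0.02 and 0.0222). Slc50a1, a sugar transporter, lay at 8.34, 8.46 and 8.41 with scrambled and between 8.45 and 8.71 with Tet1 shRNA, and fell from 9.88, 9.91 and 9.81 to 8.72, 8.47 and 8.47 with Sin3A shRNA, apart in the Sin3A set and overlapping in the Tet1 set (difference 1.48). Slc50a1 was reversed under the level filter and without Sin3A shRNA array 1 (adjusted p of the Tet1 effect 0.0403 and 0.0381). Axl, a receptor tyrosine kinase (1.44), Sap25, which encodes a Sin3A-associated protein (1.28), Mc5r, a melanocortin receptor (1.27), and Trh, the precursor of thyrotropin-releasing hormone (1.24), fell with Sin3A shRNA and had Tet1 effects between -0.01 and 0.12.

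Among genes called with Sin3A shRNA alone on the lower side, Scn3b, a beta subunit of voltage-gated sodium channels, had the largest size and went from 7.99, 8.05 and 8.06 to 9.76, 9.87 and 9.80, a 3.43-fold rise. In the Tet1 set it lay at 6.57, 6.38 and 6.42 with scrambled and between 6.37 and 6.65 with Tet1 shRNA. The Sin3A groups were apart and the Tet1 groups overlapped (difference -1.73, SE 0.09, adjusted p = 2.63e-08). Spink10, of the Kazal protease inhibitor family, went from 6.24, 6.04 and 6.0 to 7.30, 7.64 and 7.95, against 4.91, 4.91 and 4.84 and 4.64 to 5.08 in the Tet1 set (difference -1.55). Its groups were likewise apart with Sin3A shRNA only. Unc13a, a synaptic vesicle priming protein (-1.37), Ttc30a2, an intraflagellar transport protein (-1.31), Spag6l, a protein of the ciliary axoneme (-1.30), and Ccdc87 (-1.25) had Tet1 effects between -0.13 and 0.02. Ttc30a2 has close paralogs, which its probes may not tell apart.

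Where both knockdowns moved a gene in the same direction, the sizes could still differ. Both effects were positive for 67 probe sets with the larger Tet1 effect and 79 with the larger Sin3A effect, and both were negative for 52 and 86. Lefty1 lay at 8.84, 9.36 and 9.46 with scrambled, at 9.05, 8.98 and 9.11 with Tet1 shRNA 4 and at 8.24, 8.13 and 8.52 with Tet1 shRNA 5, and went from 9.77, 9.80 and 9.57 to 7.44, 7.34 and 7.41 with Sin3A shRNA. Its Tet1 shRNA 4 arrays lay within the scrambled range and the Tet1 shRNA 5 arrays below it, whereas the Sin3A arrays were far apart. Its Tet1 effect was -0.55, its Sin3A effect -2.31 and the difference 1.77 (SE 0.18, adjusted p = 8.19e-06). Scd1, the stearoyl-CoA desaturase, rose by 1.55 with Tet1 and 0.26 with Sin3A shRNA. Pmp22, a myelin and junction protein, fell by 0.31 and 1.54. Stambpl1, a deubiquitinase (difference -1.29), Lactb, a mitochondrial serine protease-like protein (-1.28), and Nr3c1, the glucocorticoid receptor (-1.05), rose more with Sin3A shRNA, and Esrp1, an epithelial splicing regulator (-1.03), fell more with Tet1 shRNA. Membership of this class was least settled for Nr3c1 and Stambpl1, whose separate Tet1 effects missed the threshold in 19 and 11 of the 25 alternatives (adjusted p by limma up to 0.259 and 0.346), while their Sin3A effects stayed called.

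To describe functions, 48 gene lists covering signalling pathways, lineages, complexes and metabolism were counted. Together they held 1076 measured genes, of which 34.1% had a called difference, 18.2% higher and 15.9% lower, more than the 20.0% of all probe sets. Among the 10551 probe sets above the median level in both sets, 31.8% were called, 18.2% higher and 13.6% lower. Reversal occurred for 5.20% of these brighter probe sets. A list with about 1 in 3 members called is therefore near its background, and lists are read against these shares. Counts are given with their medians and without a test over the list.

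**Figure D3:**
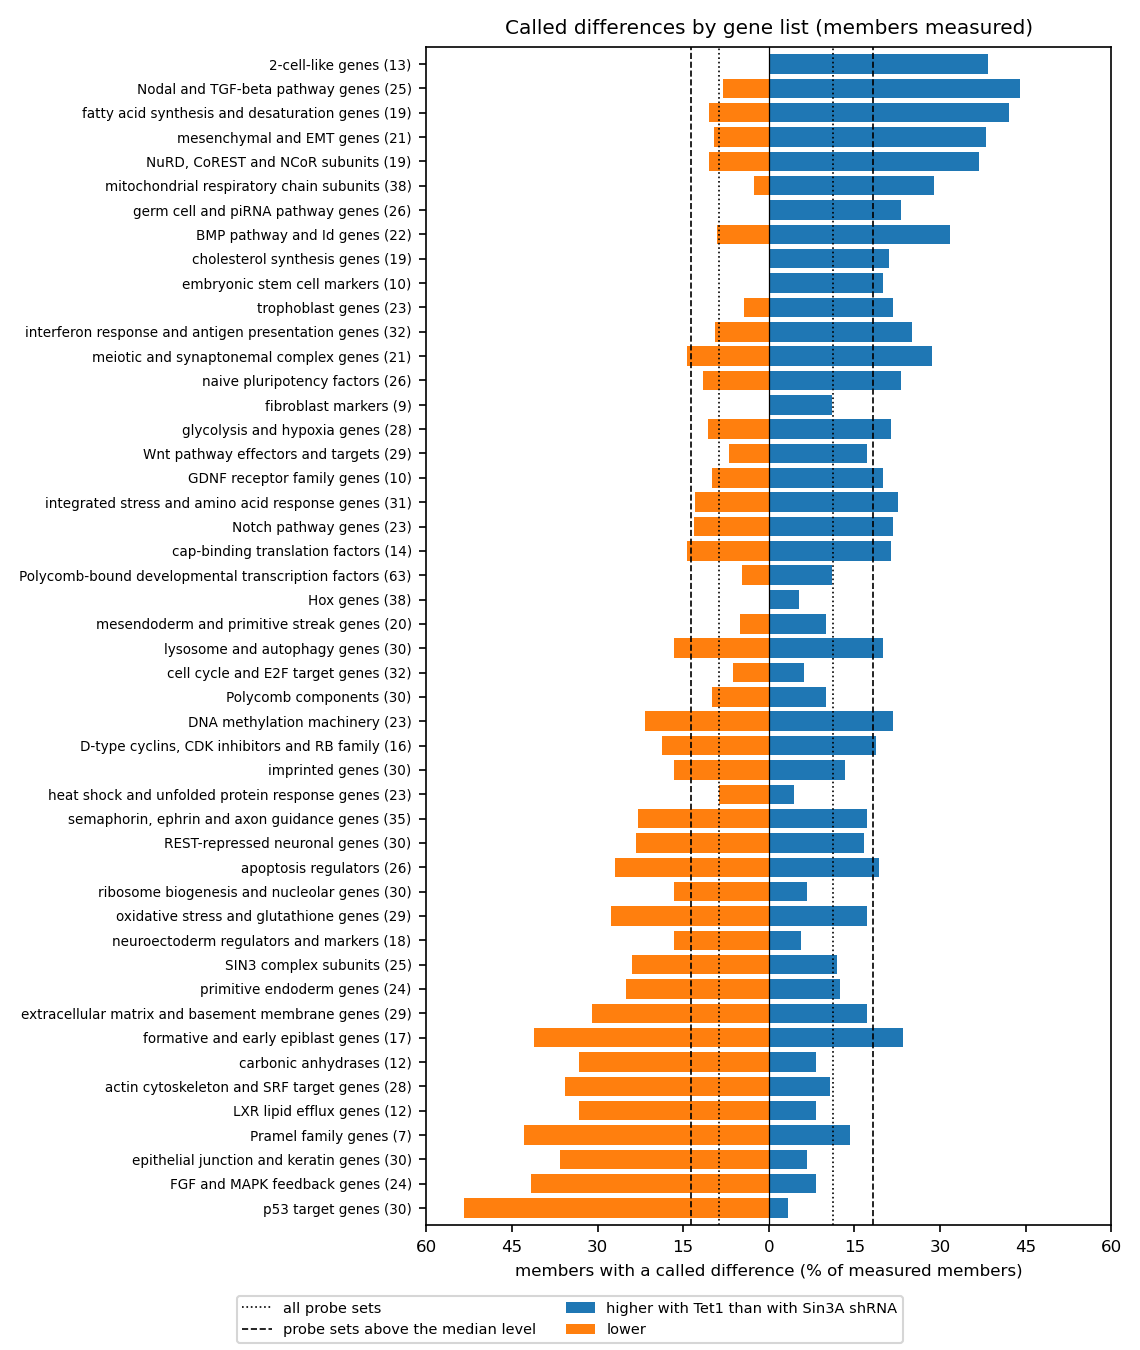
Share of measured members with a called difference for each of 48 gene lists (x axis, percent), with members higher after Tet1 than after Sin3A shRNA to the right and lower to the left, and the number of measured members in parentheses. Dotted lines mark all probe sets (11.3% and 8.71%) and dashed lines the probe sets above the median level (18.2% and 13.6%); p53 target genes reach furthest to the left.

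The transcription factor p53 answers DNA damage and other stress. Of 30 measured target genes, 16 were lower, 11 of them called lower with each hairpin, and 1 was higher, with a median difference of -0.30 against -0.01 for all probe sets; the median Tet1 effect was -0.24 and the median Sin3A effect 0.17. Perp, a desmosomal and apoptosis-linked membrane protein, lay at 9.25, 9.28 and 9.07 with scrambled, at 8.58, 8.57 and 8.79 with Tet1 shRNA 4 and at 9.17, 9.22 and 9.08 with Tet1 shRNA 5, and went from 10.21, 10.10 and 10.35 to 11.0, 11.09 and 11.07 with Sin3A shRNA. Only Tet1 shRNA 4 was below the scrambled range in the Tet1 set, and every Sin3A shRNA array was above its controls; the difference was -1.13 (SE 0.11, adjusted p = 4.75e-06) and was called with each hairpin. Plk2, a polo-like kinase, fell by 0.48 and rose by 0.53, a difference of -1.01, and Dcxr, a carbonyl reductase, fell by 0.35 and rose by 0.49. Ddit4, an inhibitor of mTORC1 signalling (-0.66), Trp53inp1, a p53-induced nuclear protein (-0.61), and Bbc3, the BH3-only protein Puma (-0.60), were lower too, Bbc3 losing its call in 7 of the 15 fits that left out 1 array. Plk2, Perp, Dcxr and Aen, an apoptosis-enhancing nuclease, were reversed. Leaving out any 1 array left 13 to 16 members lower. Cdkn1a, which encodes the p53-induced cell cycle inhibitor p21, had no called difference, and Sesn1, a stress-induced sestrin, was the member that was higher.

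Genes of the Nodal and TGF-beta pathway tended the other way, with 11 of 25 higher and 2 lower, and a median of 0.11. The ligand antagonists Lefty2 and Lefty1 stood among the largest, as given above. Tgfbi, a secreted matrix protein induced by TGF-beta, lay at 7.88, 8.07 and 8.12 with scrambled and between 9.42 and 9.63 with Tet1 shRNA, and went from 9.36, 9.51 and 9.37 to 8.82, 8.94 and 8.89 with Sin3A shRNA. No groups overlapped, and the difference was 2.05 (SE 0.09, adjusted p = 4.6e-09). Among the ligands, Tgfb2 fell in both knockdowns and further with Sin3A shRNA (-0.35 and -1.13). Foxh1, the DNA-binding partner of Smad proteins in the Nodal response, rose by 0.44 and fell by 0.33. Skil, a Smad corepressor, was lower by 0.64. The 11 higher members were 11 or 12 when any 1 array was left out. In the BMP and Id list 7 of 22 were higher and 2 lower (median 0.15). The BMP target genes Id3 (0.77) and Msx2 (0.68) and the signal transducer Smad5 (0.46) were reversed. The higher count fell to 4 without Sin3A shRNA array 3. Id2 was lower (-0.43), with a difference of -0.68 for Tet1 shRNA 4 and an uncalled -0.18 for Tet1 shRNA 5. The Tet1 effect of Id3 was -0.01 with Tet1 shRNA 4 and 0.50 with Tet1 shRNA 5 (adjusted p between the hairpins = 0.014 by limma), so its reversal rested on 1 hairpin. Notch pathway genes gave 5 of 23 higher and 3 lower, near the background, with the receptor Notch4 (0.80) and the target Hes1 (0.72) reversed. In the Wnt list 5 of 29 were higher and 2 lower. The 24.1% called there lay below the 31.8% of brighter probe sets. The feedback genes Notum and Axin2 (0.68) and the co-receptor Lrp6 (0.59) were reversed, and Sp5 (-0.57) was lower. The higher Wnt count was 8 without scrambled array 2 of the Sin3A set.

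Feedback genes of FGF and MAPK signalling were lower for 10 of 24 members and higher for 2, with a median of -0.17. Fgfr2, a receptor, fell by 0.85 with Tet1 shRNA and had a Sin3A effect of 0.13, and Dusp4, a phosphatase that switches off ERK, fell by 0.65 with a Sin3A effect of 0.11. Etv1, an ETS factor downstream of FGF, rose with Sin3A shRNA (0.55) and had a Tet1 effect of 0.10. Fos, an immediate early gene (-0.67), was called but lost the call in 9 of the 15 fits that left out 1 array. The lower count was 6 without scrambled array 1 of the Sin3A set. The higher count was 0 or 1 when 1 array was left out, except without scrambled array 2 or 3 or Tet1 shRNA 5 array 2 of the Tet1 set.

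Fatty acid synthesis and desaturation genes were higher for 8 of 19 and lower for 2, with the median of 0.35 the largest of all lists. Besides Scd1, its paralog Scd2 rose by 0.55 with Tet1 and fell by 0.17 with Sin3A shRNA, the elongase Elovl5 rose by 0.69 and 0.18, and the desaturase Fads2 rose by 0.48 with a Sin3A effect of -0.01. Lipid efflux genes of the LXR pathway were lower for 4 of 12 and higher for 1, led by the cholesterol exporter Abca1 (-1.01) and the apolipoprotein Apoc1 (-0.91). Of these 4, 2 were called with each hairpin; the others, Apoe and Pltp, had differences of -0.10 and -0.03 with Tet1 shRNA 4 and of -0.56 and -0.59 with Tet1 shRNA 5, and Apoe lost its call in 7 of the 15 fits that left out 1 array. Cholesterol synthesis genes were higher for 4 of 19 and lower for 0, near the background, with a median of -0.02. Subunits of the respiratory chain were higher for 11 of 38 and lower for 1, with differences such as 0.54 for Ndufa2 and 0.50 for Ndufb3, both of complex I; the higher count fell to 7 without scrambled array 1, Tet1 shRNA 4 array 3 or Tet1 shRNA 5 array 1 of the Tet1 set, and without scrambled array 3 or Sin3A shRNA array 2 of the other set. It lay at 7 to 11 when arrays were rescaled.

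**Figure D4:**
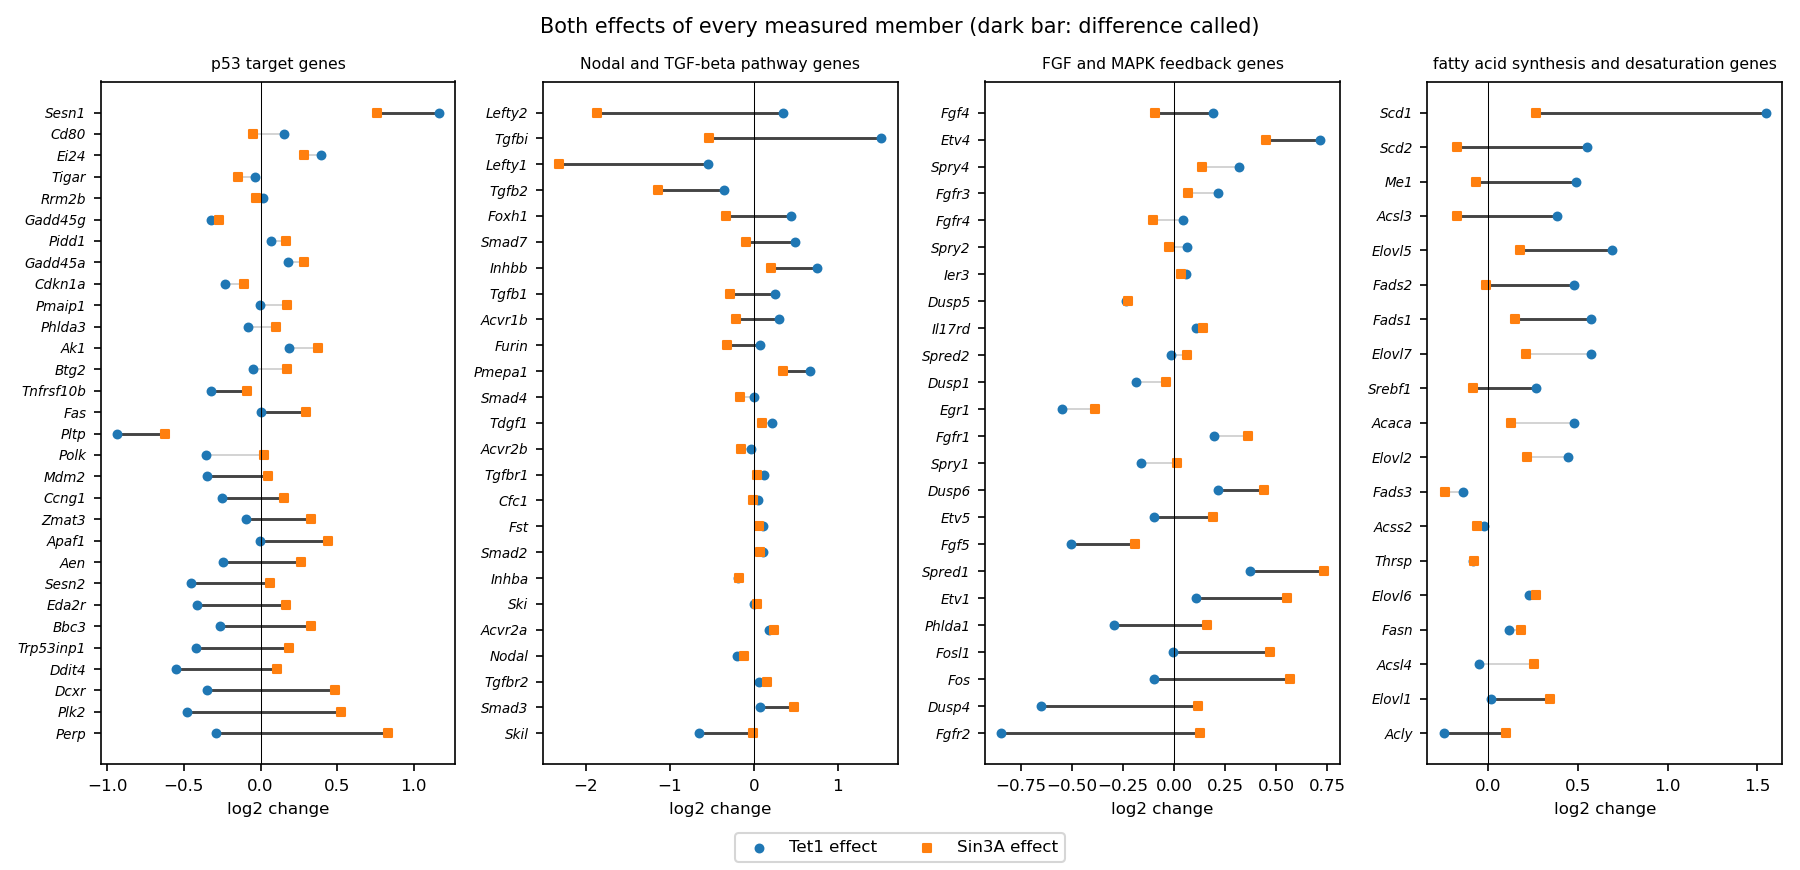
Tet1 effect (circles) and Sin3A effect (squares) in log2 units (x axis) for every measured member of 4 lists, ordered by their difference, with a dark bar where the difference was called. In the p53 and FGF lists most dark bars have the circle on the left, and in the Nodal and fatty acid lists most have it on the right.

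Cell shape and adhesion genes split by type. Of 30 epithelial junction and keratin genes 11 were lower and 2 higher (median -0.15). Their median effects were -0.37 with Tet1 and -0.19 with Sin3A shRNA, so the list leaned down in both knockdowns. Of its called members 7 moved the same way in both knockdowns and 2 were reversed. Of 21 mesenchymal genes 8 were higher and 2 lower (median 0.20), with median effects of 0.08 and -0.10. Grhl3, an epithelial transcription factor, went from 10.09, 9.99 and 9.99 to 11.08, 11.09 and 11.08 with Sin3A shRNA and from 9.10, 9.08 and 9.05 to between 8.84 and 9.0 with Tet1 shRNA. Its groups were apart in both sets, although the fall was only 0.14, and the difference was -1.20 (SE 0.06, adjusted p = 3.33e-08). The tight junction claudins Cldn6 (-0.96) and Cldn4 (-0.96) and the splicing regulators Esrp1 and Esrp2 (-0.65) were lower, with Cldn6 and Esrp1 falling in both knockdowns and Cldn4 and Esrp2 having a called fall with Tet1 shRNA only, and the membrane protease St14 (-0.73) was reversed. Among mesenchymal genes, the surface glycoprotein Thy1 rose by 0.81 and fell by 0.23, the metalloproteases Mmp2 and Mmp14 were higher by 0.81 and 0.62, and the receptor Pdgfrb by 0.71. Thy1 also stands in the list of fibroblast markers, of which no other member had a called difference. The mean of that list relative to the array median was -0.84 with scrambled, -0.78 with Tet1 shRNA 4 and -0.76 with Tet1 shRNA 5, and -0.85 and -0.93 in the Sin3A set. Actin cytoskeleton genes and targets of SRF were lower for 10 of 28 and higher for 3 (median -0.14), with Cnn2, smooth muscle actin Acta2 (-0.74) and the focal adhesion protein Zyx (-0.70) lower and desmin, Des (0.82), and Tagln (0.77) higher.

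Chromatin and DNA methylation genes moved in both directions. Dnmt3b, a de novo DNA methyltransferase, lay at 10.41, 10.44 and 10.40 with scrambled, at 9.38, 9.45 and 9.42 with Tet1 shRNA 4 and at 9.68, 9.84 and 9.79 with Tet1 shRNA 5, and rose from 10.83, 10.86 and 10.91 to 11.06, 11.16 and 11.19 with Sin3A shRNA. It was reversed with all groups apart, at a difference of -1.09 (SE 0.07, adjusted p = 2.83e-07). Gadd45b, a stress-induced factor linked to demethylation, was reversed the other way (0.26 and -0.73). In the whole DNA methylation list, which also holds Tet1, 5 of 23 were higher and 5 lower. Among subunits and partners of the Sin3 complex 6 of 25 were lower and 3 higher, Sin3a itself included. Ing2 (0.07 and 0.87) and Ing1 (-0.18 and 0.56), the PHD finger subunits that read methylated histone H3, and Mnt, a Max partner that recruits Sin3 (-0.32 and 0.24), were lower, and Sap18 was higher (0.67). Ing1 and Mnt were reversed. NuRD, CoREST and NCoR subunits were higher for 7 of 19 and lower for 2, with differences of at most 0.48 in size, as for Rcor2.

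The D-type cyclin and RB family list held reversals on both sides. Beside Ccnd2, Rb1, the retinoblastoma protein, fell by 0.46 with Tet1 and rose by 0.43 with Sin3A shRNA (difference -0.88, SE 0.17), and its relative Rbl1 did the opposite (0.84, SE 0.17). Rbl2 (-0.78) and Ccnd3 (-0.55) rose with Sin3A shRNA, with Tet1 effects of -0.21 and 0.12. General cell cycle and E2F target genes were mostly without a difference, 2 of 32 higher and 2 lower, below the background; the proliferation marker Mki67 (-0.68) was reversed.

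Pluripotency and lineage lists showed no single direction. Naive pluripotency factors were higher for 6 of 26 and lower for 3, with Tbx3 (1.04) and Tfcp2l1 (-0.44), both transcription factors of the naive state, reversed, and Nanog 0.32 higher. Formative epiblast genes were lower for 7 of 17 and higher for 4, with a median of -0.17. Dnmt3b (-1.09), given above, and Pim2 (-0.41) were among the lower members. For Pim2 the difference was -0.65 with Tet1 shRNA 4 and -0.18 with Tet1 shRNA 5. Otx2 (0.74), Fgf15 (0.72) and Zic2 (0.56) were higher. Otx2 fell in both knockdowns and further with Sin3A shRNA, while Fgf15 and Zic2 had a called fall there only. The lower count was 3 to 6 when 1 array was left out, whichever set it came from. Trophoblast genes were higher for 5 of 23, among them Eomes (1.03), Tfap2a (0.97) and Gata3 (0.88), transcription factors of that lineage, of which the latter pair was reversed. Of 13 genes of the 2-cell-like state 5 were higher and 0 lower in the limma fit. Of these, 4 were closely related Usp17l genes, which their probes may not tell apart, with larger falls after Sin3A shRNA (such as Usp17la, -0.53 and -1.75). Polycomb-bound developmental factors were called for 10 of 63, below the background, yet Meis2 (1.38), Pax8 (1.25) and Tbx15 (1.09), homeobox, paired box and T-box regulators, and Neurod1 were reversed.

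Of 32 interferon response and antigen presentation genes 8 were higher and 3 lower. The class I heavy chain H2-D1 rose by 0.59 and fell by 0.45, and B2m, the light chain of class I, fell by 1.0 with Sin3A shRNA. Its mean Tet1 effect of 0.00 averaged 0.19 with Tet1 shRNA 4 and -0.18 with Tet1 shRNA 5, which differed from each other (adjusted p = 0.0456 by limma). Oas2 was the largest of the list, and the guanylate-binding protein Gbp2 fell more with Tet1 shRNA (difference -0.77). Oxidative stress genes were lower for 8 of 29 and higher for 5. The glutathione peroxidases parted, with Gpx2 and Gpx1 rising by 1.03 and 0.83 and Gpx4 falling by 0.88 with Tet1 shRNA at Sin3A effects of -0.02, -0.08 and 0.15, and the metallothioneins Mt2 (1.05) and Mt1 (0.90) were higher, with falls of 1.32 and 1.42 after Sin3A shRNA against Tet1 effects of -0.27 and -0.52. The lower count of the oxidative list was 5 without scrambled array 3 of either set or without Sin3A shRNA array 3. Among 12 carbonic anhydrases 4 were lower and 1 higher, with Car2 and Car3 (-1.24) reversed and Car5b rising with Sin3A shRNA by 1.01. Of 30 imprinted genes 5 were lower and 4 higher, with a median of -0.08, so the large differences of Peg3 and Peg10 were not shared by most of the list.

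Several further lists had no prevailing direction. Reversed were 1 of 26 apoptosis regulators, 4 of 30 lysosome and autophagy genes, 2 of 28 glycolysis and hypoxia genes and 2 of 31 stress response genes. Among brighter probe sets 5.20% were reversed, and counts this small are not read as a trait of a list. Among 26 apoptosis regulators 5 were higher and 7 lower: the pore-forming Bak1 rose by 0.30 and fell by 0.70, while the executioner Casp6 rose in both knockdowns and further with Sin3A shRNA (0.39 and 1.27), and the BH3-only protein Bcl2l11 rose with Sin3A shRNA (0.85) at a Tet1 effect of 0.10. The higher count fell to 2 or 3 without scrambled array 1 of the Tet1 set or without single arrays 1 or 2 of either Sin3A set group. Of 30 lysosome and autophagy genes 6 were higher and 5 lower, and the lysosomal Psap (0.84), Glb1 (0.65) and Ctsb (0.56) rose with Tet1 and fell with Sin3A shRNA, whereas the autophagy gene Wipi1 was lower by 0.84. The lower count was 3 without Sin3A shRNA array 2. Of 28 glycolysis and hypoxia genes 6 were higher and 3 lower, with the hypoxia-induced Ndrg1 (0.76) and the angiogenic ligand Vegfa (0.71) reversed. The Tet1 effect of Vegfa was 0.50 with Tet1 shRNA 4 and 0.10 with Tet1 shRNA 5 (adjusted p between the hairpins = 0.0488 by limma). In the list of the integrated stress response, 7 of 31 were higher and 4 lower, and Asns, the asparagine synthetase, and the amino acid transporter Slc7a3 rose by 0.27 each with Tet1 shRNA and fell by 0.35 and 0.36 with Sin3A shRNA.

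Germ cell and piRNA genes were higher for 6 of 26 and lower for 0 in the limma fit (0 or 1 lower when 1 array was left out), with a median of 0.11. Tex19.1, a silencer of retrotransposons, was reversed (0.50 and -0.40), and the receptor Kit and the RNA-binding protein Dazl rose with Tet1 shRNA by 0.82 and 0.76 at Sin3A effects of 0.02 and 0.06. Of 21 meiotic genes 6 were higher and 3 lower (1 to 4 lower when 1 array was left out). The cohesin subunit Stag3 (0.88, with Tet1 effects of 0.67 and 0.23 for Tet1 shRNA 4 and 5) and the piRNA factor Mael (-0.67) reversed in opposite directions. Mael was counted with the meiotic genes and not in the germ cell and piRNA list, whose count of 0 lower leaves it out. Neuronal genes known to be repressed by REST were higher for 5 of 30 (3 without scrambled array 3 of either set or Sin3A shRNA array 3) and lower for 7; Celsr3, an adhesion receptor of axon guidance, fell by 0.83 and rose by 0.29, and the neurofilament gene Nefh rose by 0.33 and fell by 0.30 while Nefm and Nefl were lower by 0.58 and 0.55. Among 35 axon guidance genes 6 were higher and 8 lower, led by Unc5b and by Sema5b, a semaphorin that rose by 1.52 with Tet1 shRNA at a Sin3A effect of 0.21. In the matrix list 5 of 29 were higher and 9 lower (5 lower without scrambled array 1, Sin3A shRNA array 2 or Sin3A shRNA array 3 of the Sin3A set), the collagen-crosslinking Loxl2 (0.70 and -0.44) being reversed and the laminin Lamb1 falling by 0.62 with Tet1 shRNA.

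Some list counts depended on the Tet1 hairpin. With Tet1 shRNA 4 as the only Tet1 hairpin, the lower count of the matrix list was 2, the higher count of NuRD, CoREST and NCoR subunits 4, that of DNA methylation genes 3, that of respiratory chain subunits 7 and the lower count of lipid efflux genes 2. With Tet1 shRNA 5 alone, 2 formative genes were lower, 2 REST-repressed genes and 4 stress response genes were higher, and 9 lysosome genes were lower. The counts of the p53, Nodal, FGF, fatty acid, epithelial, mesenchymal and actin lists stayed within 1.5-fold in the larger of their 2 directions with either hairpin, which does not say that the same genes were called: of the 10 lower FGF members 5 were called lower with each hairpin.

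The promoters of the classes were compared by their CpG content, which no rule of the classes used. Of the measured genes 80.1%, 15059, had 1 or more windows of 300 bases in the RefSeq table. CpG counts were averaged over the windows of a gene, and 2564 of these genes had more than 1. The median number of CpG was 21 for genes that rose with Tet1 and fell with Sin3A shRNA (298 genes), 19 for the opposite direction (169), 20 for both directions of the Tet1 led class, 19 and 20 for the Sin3A led class, and 15 for all measured genes. Genes without a called difference had a median of 13, and 28.3% of these genes averaged fewer than 5 CpG, against 6.71% and 3.55% in the reversed classes. The level moved with this: the reversed classes stood at medians of 1.25 and 1.72 log2 units above the array median and the genes not called at -0.43, and its part in the CpG counts was not tested. The E-box motif CACGTG, the same on both strands, occurred in at least 1 window of 9.52% of all measured genes with a window. Genes with more windows had more places for it. The share of genes was 12.1% and 16% in the reversed classes. It was 11.6% and 16.8% in the Tet1 led higher and lower classes and 11.2% and 7.76% in the Sin3A led ones. Where both knockdowns moved a gene the same way, the share was 19% for a positive and 8.65% for a negative difference. The class with the positive difference had median effects of -0.18 with Tet1 and -0.54 with Sin3A shRNA. Genes not called had a share of 8.88%. None of the 4 promoters printed above held it.

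**Figure D5:**
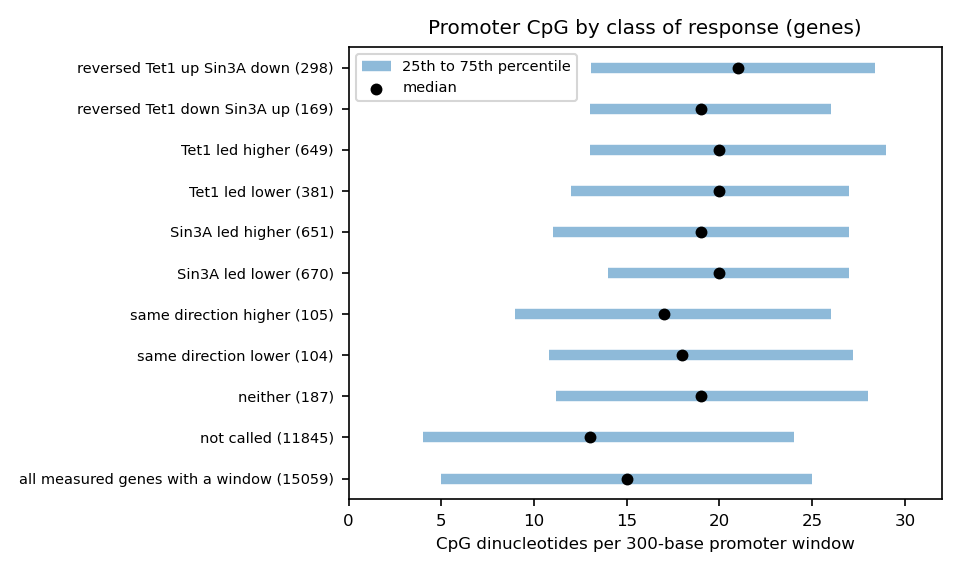
Number of CpG dinucleotides per 300-base promoter window, averaged over the windows of a gene (x axis), by class of response. The median is a point, the 25th to 75th percentile a bar, and the number of genes is in parentheses. All classes with a called difference have medians of 17 to 21, and genes without one have a median of 13.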

How the data were processed

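Per the labels' protocols, total RNA of each sample was prepared with Affymetrix whole transcript reagents for a 1-colour array. The deposited table holds log2 expression values for 21212 probe sets; affy, RMA and limma are named in the submitters' processing notes, with settings and build not given in the sources used here. Column means differ between the sets, so each seems to have been scaled on its own. The SD of levels was 2.14 on every array of the Sin3A set and 2.19 to 2.27 on those of the Tet1 set. The Sin3A arrays were thus matched to each other more closely than the Tet1 arrays. Gene symbols came from the platform annotation: 18786 probe sets had 1 symbol, 6 several and 2420 none, and for a gene with more than 1 probe set the brightest was kept. A model with 5 group means over all 15 arrays was estimated in R 4.3.3 by limma 3.58.1 (two-sided, without a filter), with Benjamini-Hochberg adjustment over 21212 probe sets and a threshold of 0.05; the procedure was tested on simulated data. With 3 arrays per group, their number limits the precision. Genes were named by rule: the 10 reversed genes per direction with the largest smaller effect, the 6 most extreme differences per direction of each led class, 4 of the unequal class, and up to 6 called members per list by size of the difference; list members named beyond these were chosen after their values were seen. The members and lists were chosen with earlier results of these data known. Same-numbered arrays did not deviate together throughout (correlations of deviations 0.171 to 0.517 between scrambled and Tet1 shRNA 4, -0.287 to 0.0361 between scrambled and Tet1 shRNA 5, -0.274 to 0.0212 in the Sin3A set), so no replicate block was used. Promoter windows came from RefSeq (GRCm38.p6). Alternatives were other scalings, a level filter, array weights, a variance trend, each Tet1 hairpin alone, a replicate block and leaving out arrays.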

Additional observations from a re-analysis of the deposited data

Results flagged for a closer look

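The Tet1 effect is a mean of 2 hairpins, and the hairpins were compared with each other in the same 15-array limma fit. They differed for 188 of 21212 probe sets (0.886%), and for 32 of the genes named by rule. The values below are Tet1 shRNA 5 minus Tet1 shRNA 4 in log2 units. Tet1 itself was 0.33 lower with the former (-0.33). Among reversed genes and those with the largest differences the values were 0.38 for Unc5b, 0.54 for Neurod1, 0.51 for Car2, 0.3 for Cnn2, -0.75 for Lefty1 and 0.53 for Esrp1. Among signalling and stress genes they were 0.5 for Id3, 0.51 for Id2, 0.51 for Perp, 0.5 for Plk2, -0.79 for Nupr1, -0.61 for Chac1, -0.4 for Vegfa, 0.25 for Ccne1 and 0.41 for Cdkn1c. Lineage and germ cell genes gave -0.3 for Tbx3, 0.35 for Dnmt3b, 0.47 for Pim2, -0.44 for Stag3, 0.4 for Tex19.1 and 0.5 for Wt1. Lipid, immune and redox genes gave -0.46 for Apoe, -0.56 for Pltp, -0.37 for B2m, -0.43 for Xaf1 and 0.53 for Gpx1. Cytoskeletal, matrix and junction genes gave 0.37 for Thbs1, -0.36 for Loxl2 and 0.41 for Cldn6, and the carbonic anhydrases Car3 and Car4 gave 0.5 and 0.46. For Perp and Plk2 the Tet1 effect came mainly from Tet1 shRNA 4 (-0.55 and -0.73, against -0.04 and -0.23 with Tet1 shRNA 5), yet their difference from Sin3A was called with each hairpin.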

How the results depend on the processing

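The count of called differences was 3408 to 4511 when any 1 array was left out, lowest without the second Sin3A shRNA array. The alternatives with all 15 arrays and all probe sets gave 3723 to 4602. Tet1 shRNA 4 as the only Tet1 hairpin gave 3487, and Tet1 shRNA 5 gave 3965. The filter to 10551 brighter probe sets gave 4104. The share of higher calls was 56.4% and moved to between 51.9% and 58.5%. It was smallest with rescaled arrays, at 52.1% with each array centred on its median. Quantile normalization gave 51.9% within each set and 52% over all 15 arrays. In that order, reversed probe sets numbered 356, 375 and 386 with Tet1 up and Sin3A down, against 399 as deposited. The opposite direction held 232, 295 and 296, against 220 as deposited. Probe sets reversed with Tet1 up and Sin3A down numbered 301 to 412 and those with the opposite direction 160 to 287 when 1 array was left out. No probe set of the reversed class changed the sign of its difference in any setting. The class was picked by its calls and every setting reuses most of the same arrays, so this describes it and tests nothing. Differences of unequal size in the same direction moved furthest: with Tet1 shRNA 4 as the only Tet1 hairpin they numbered 94 higher and 81 lower, and when 1 array was left out 102 to 148 higher and 82 to 126 lower, lowest without the second (82) and the third (83) Sin3A shRNA array; the cause was not tested. The replicate number as a block within each set gave 3723 calls, 336 and 175 of them reversed; same-numbered arrays deviated together only between scrambled and Tet1 shRNA 4, where all 3 correlations exceeded 0.1. Replicate 2 of the scrambled and of the Tet1 shRNA 4 group deviated together (r 0.517), and without both 4826 differences were called. Of the named genes' differences under single-array omission 4002 kept their side of the threshold, 197 lost the call and 1 gained it. Some list counts moved as well. Respiratory chain subunits with a higher difference numbered 7 instead of 11 under both quantile normalizations and with the block. Apoptosis regulators numbered 3 instead of 5 higher under both quantile normalizations. The level filter, which tests fewer genes, left 2 trophoblast, 2 meiotic and 3 2-cell-like genes higher (5, 6 and 5 without it) and called 10 lysosome genes lower in place of 5. With the block, 5 matrix, 5 oxidative stress, 3 primitive endoderm and 2 ribosome biogenesis genes were lower (9, 8, 6 and 5 without it).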
